A study of Mus musculus with 8 samples.

Results

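The Notch pathway and the genes of the secretory lineage were examined through 6 windows of mouse build mm9 that hold 7 genes: Notch1, Hes1, Atoh1, Spdef, the neighbours Lyz1 and Lyz2, and Muc2. Every peak of histone H3 acetylated at lysine 27 (H3K27ac), a mark of active promoters and enhancers, that overlapped a window by 1 bp or more was taken from the deposited lists. This gave 57 of 117035 peaks. Libraries are named by feeding state and the replicate number of their labels, and values of the pair fed 1 and fed 4, or fasted 2 and fasted 5, stand in that order. The fed pair had 14 and 9 of the peaks and the fasted pair 13 and 21. The windows were chr2:26295000-26395000 (Notch1), chr16:30045000-30090000 (Hes1), chr6:64660000-64705000 (Atoh1), chr17:27830000-27890000 (Spdef), chr10:116690000-116750000 (Lyz1 and Lyz2) and chr7:148850000-148960000 (Muc2). Gene models of this build were not used here, so peaks are placed by their mm9 position and by their distance from a window's centre, not by exon or intron.

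The tissue was whole small intestinal crypts, the pits of the lining that hold stem cells, their dividing progeny and Paneth cells. Mice of both sexes, 6 to 12 weeks old, of the strains Lgr5EGFP-IRES-CreERT2/+ and C57BL/6J, had food and water (fed) or water alone (fasted) for 24 h. The labels do not give the strain of each pool. Each library came from a pool of crypts of 4 animals, with 2 fed and 2 fasted pools, and the histone deacetylase inhibitor trichostatin A (TSA, 100 nM) was in the isolation solutions of both states. Bulk crypts mix cell types, so fewer cells of a type and less acetylation per cell cannot be told apart.

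Notch signalling passes between touching cells: a ligand on one cell triggers cleavage of the receptor on its neighbour, and the freed receptor fragment joins the DNA-binding protein RBPJ to switch on genes such as Hes1. In the intestinal crypt, Hes1 holds back Atoh1, so cells with active Notch tend towards the absorptive fate and cells without it towards the secretory fate. Atoh1 leads to goblet, Paneth and enteroendocrine cells, Spdef matures goblet and Paneth cells, Muc2 is the gel-forming mucin of goblet cells, and Lyz1 is the lysozyme of Paneth cells. Lyz2 is the lysozyme best known from macrophages.

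The upstream sequence of 4 of the genes is shown because these genes stand at the ends of what the peak lists hold: a window with peaks in all 4 libraries (Notch1), a window with a peak in 3 (Spdef), and a window with none (the paralogs Lyz1 and Lyz2). Each line is the 250 bases before the annotated start, 5′ to 3′ on the gene's own strand (minus for all 4 genes), from RefSeq on GRCm38.p6. That build differs from mm9, so the sequences were not placed against the peaks. Capitals mark matches on either strand to TGGGAA, the core of the RBPJ site, to CACNAG, the N-box of HES factors, to CAGCTG, an E-box, or to TATAAA, the TATA box.
Notch1: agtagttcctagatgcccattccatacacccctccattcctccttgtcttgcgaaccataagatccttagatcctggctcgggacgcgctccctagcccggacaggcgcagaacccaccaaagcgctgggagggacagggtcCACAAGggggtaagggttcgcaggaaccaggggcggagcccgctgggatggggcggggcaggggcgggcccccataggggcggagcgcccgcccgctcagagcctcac
Spdef: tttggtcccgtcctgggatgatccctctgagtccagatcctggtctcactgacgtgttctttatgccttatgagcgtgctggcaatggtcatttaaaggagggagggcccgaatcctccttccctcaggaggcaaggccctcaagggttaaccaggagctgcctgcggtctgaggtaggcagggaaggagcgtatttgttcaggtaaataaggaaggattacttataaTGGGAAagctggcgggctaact
Lyz1: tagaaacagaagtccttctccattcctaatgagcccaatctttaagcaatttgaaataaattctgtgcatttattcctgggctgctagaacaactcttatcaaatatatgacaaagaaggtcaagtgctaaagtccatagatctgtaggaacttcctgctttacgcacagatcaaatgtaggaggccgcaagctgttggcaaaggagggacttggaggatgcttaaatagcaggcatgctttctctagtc
Lyz2: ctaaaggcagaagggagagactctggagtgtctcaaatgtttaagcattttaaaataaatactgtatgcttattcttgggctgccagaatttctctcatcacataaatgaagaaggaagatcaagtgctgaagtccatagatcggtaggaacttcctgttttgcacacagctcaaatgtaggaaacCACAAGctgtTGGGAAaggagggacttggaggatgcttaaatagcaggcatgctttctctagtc
A promoter was found in the RefSeq table for 6 of the 7 genes; Hes1 had no entry. TGGGAA occurred once in the Spdef sequence, 22 bases before the start, and once in that of Lyz2, 54 bases before it, and in 21.6% of 32851 promoters of the same length. The Lyz2 sequence also held 1 CACNAG, as did that of Notch1, against 36.7% of all promoters. CAGCTG and TATAAA each occurred once in the Muc2 sequence, 112 and 174 bases before the start, against 13.0% and 12.4% of all promoters. No listed motif occurred in the Atoh1 or Lyz1 sequence, which says only that these letters are not in these windows. Over the 100 bases nearest the start, Lyz1 and Lyz2 were identical at 92 positions. Counted from 1 at the first base shown, the substitution C200G lay in the TGGGAA of Lyz2 (C in Lyz1, G in Lyz2). Base composition ran from 66.0% G and C with 16 CpG at Notch1 to 41.2% with 2 CpG at Lyz1 and 41.6% with 1 CpG at Lyz2. The Atoh1 sequence had 55.6% with 14 CpG, that of Muc2 53.2% with 4 CpG and that of Spdef 52.8% with 7 CpG, against medians of 52.4% and 6.0 CpG over all promoters.

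The peaks gathered at the receptor and its target. The Notch1 and Hes1 windows held 43 of the 57 peaks and were the windows with peaks in all 4 libraries, as were 46.8% of windows of 100 kb and 38.9% of windows of 45 kb along the genome that had any peak. The Atoh1, Spdef and Muc2 windows held 14 peaks, of which 12 belonged to fasted 5. The Lyz1 and Lyz2 window held 0 peaks in every library. Within the list of its own library, a peak's rank is given here as its score percentile, the share of that list with the same score or a lower one. The score is the authors' own value of each peak. Within fasted 5, the median percentile was 79.2 at Notch1 (7 peaks) and 97.5 at Hes1 (2 peaks). It was 22.6 at Atoh1 (7 peaks), 23.4 at Spdef (4 peaks) and 32.8 for the single Muc2 peak. The higher Hes1 peak of fasted 5 had a score shared by 1282 peaks of that list. The other lists did not all show this gap: the only Spdef peak of fed 4 stood at 40.0, above the median of 35.4 at Notch1 in that list, and that of fasted 2 at 63.3, close to the Notch1 median of 64.8. The lists differ in length, covering 48.8 and 21.9 Mb (fed) and 99.2 and 109.1 Mb (fasted), and their sequencing depth is unknown.

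**Figure D1:**
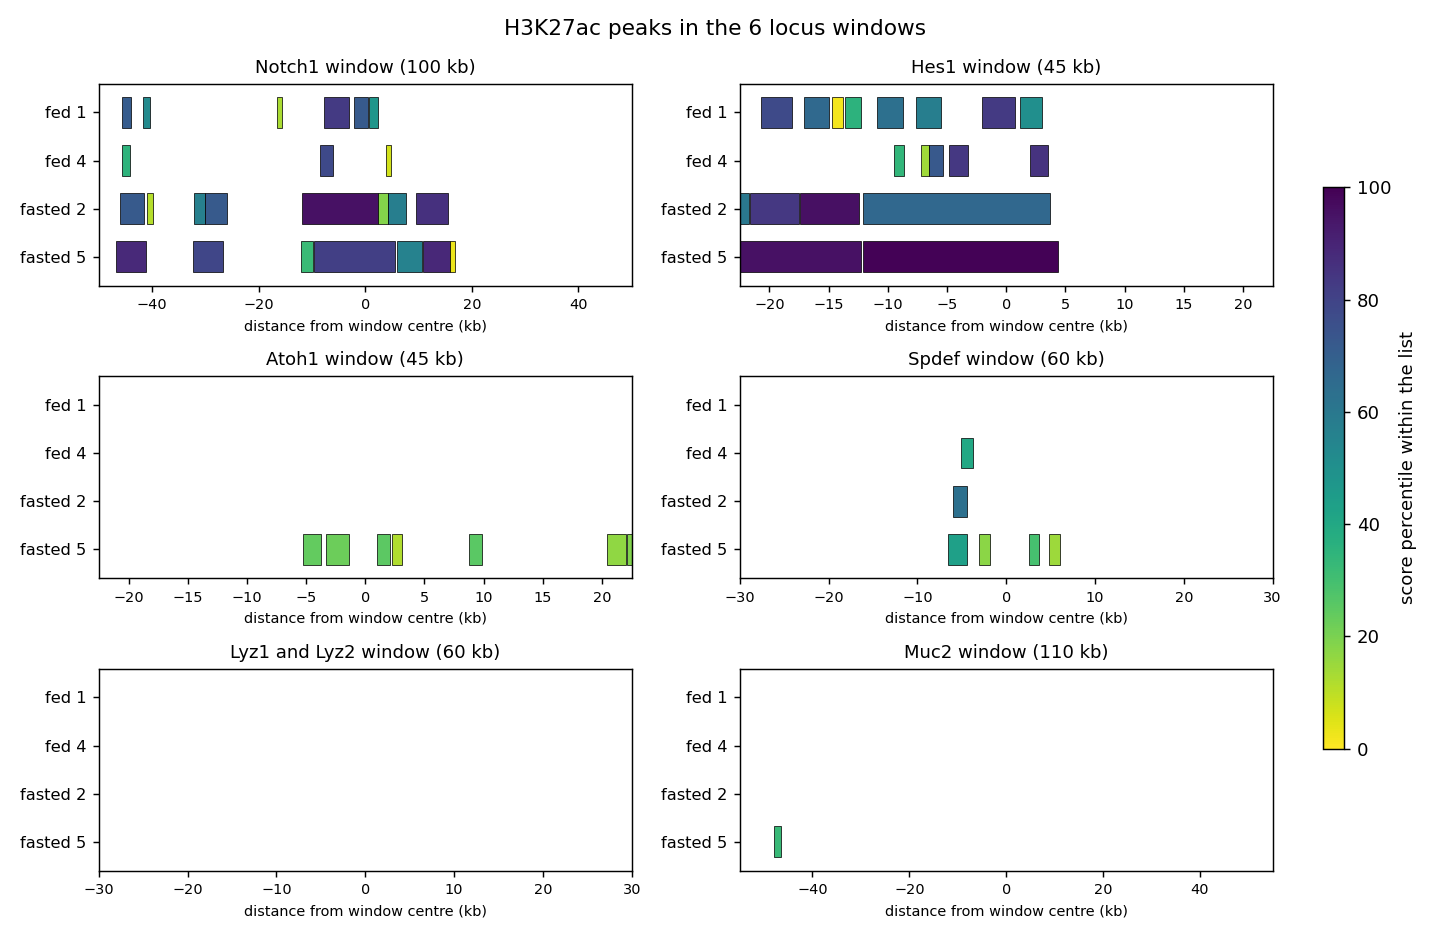
Peaks of the 4 libraries in each window, drawn to scale against the distance from the window's centre in kb and coloured by score percentile within the library's list. The Notch1 and Hes1 windows have peaks in every row, the Atoh1 and Muc2 windows in fasted 5 alone, and the Lyz1 and Lyz2 window in none.

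Notch1 encodes the receptor. Of its 100 kb window, the fed libraries covered 12.39 and 5.17 kb and the fasted ones 37.23 and 39.31 kb. The states did not overlap, with fasted cover at 38270.0 ± 1472.2 bp and fed cover at 8777.5 ± 5107.4 bp (mean ± SD, n = 2 each), a ratio of 4.36 and a two-sided exact permutation p of 0.33. That p is the smallest that 2 against 2 libraries allow, here and below. The same order held at 83.0% of the 9501 windows of 100 kb along the genome that had a peak in any library, so by itself it does not set Notch1 apart. The median ratio of fasted to fed cover was 3.26 over the 6705 windows of that length with a fed peak. Set against the whole of its list, the Notch1 window held 254.1 and 235.8 bp per Mb of peak cover in the fed libraries but 375.4 and 360.3 bp in the fasted ones. Here too the fasted values were the higher without overlap (exact permutation p = 0.33, n = 2 each), an order found in 38.5% of such windows. Neither order held with the top-scoring 21.9 Mb of each list, where the window had 4663 and 5166 bp (fed) but 14214 and 0 bp (fasted), or 212.8 and 235.8 against 648.7 and 0.0 bp per Mb. The states then overlapped (exact permutation p = 1.0 on both scales, n = 2 each).

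The Notch1 peaks fell into 5 merged regions, made by joining peaks of any library that overlap. The widest spanned 27819 bp (chr2:26333024-26360842) and had peaks in all 4 libraries. Fed peaks filled 8713 and 3679 bp of it, fasted peaks 25358 and 27011 bp. It held the highest-scoring Notch1 peak of each library, at percentiles 83.1 and 77.9 in the fed lists and 95.5 and 88.8 in the fasted lists. The fed tops overlapped, since 1749 of the 2623 bp of the fed 4 top (chr2:26336405-26339027) were also under that of fed 1 (chr2:26337279-26341941). The top of fasted 2 was a single peak of 14214 bp (chr2:26333128-26347341) that held the whole of both. The top of fasted 5 (chr2:26355878-26360842) lay elsewhere, on 4965 bp without a base under a fed peak, while 4684 bp of it were under a fasted 2 peak.

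At the left end of the Notch1 window, a region of 6880 bp (chr2:26298264-26305143) was marked in every library too, up to percentiles 71.3 and 35.4 (fed) and 72.0 and 88.4 (fasted). Between these regions lay the single fasted-only region of the 6 windows, with fasted peaks of both pools and no fed peak (chr2:26312676-26319014, 6339 bp). Its highest peaks stood at percentiles 71.9 and 79.2. A fed 1 peak of 828 bp (chr2:26328489-26329316) at percentile 12.7 and a fasted 5 peak of 1061 bp at percentile 3.0 were each found in 1 library. To the right of chr2:26361920 no library had a peak for the last 33080 bp of the window.

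Base by base, the fasted libraries shared most of their Notch1 cover and the fed libraries a smaller part of theirs. Fasted 2 and fasted 5 had 34610 bp in common, 93.0% of the cover of fasted 2 and 88.0% of that of fasted 5. Fed 1 and fed 4 had 3184 bp in common, 25.7% of the cover of fed 1 and 61.6% of that of fed 4. Both fasted and neither fed library covered 22220 bp, and 0 bp were under both fed libraries without a fasted peak. Of the 14371 bp under either fed library, 86.2% lay under both fasted libraries. Base counts of this kind were not taken over the genome. Among all merged regions 19.3% were fasted-only and 0.297% fed-only, and the fasted lists are the longer. By itself the 0 bp thus does not set Notch1 apart.

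Hes1, the repressor that Notch switches on, was the most densely covered window. Of its 45 kb, fed peaks covered 15.92 kb (35.4%) and 5.88 kb (13.1%), and fasted peaks 25.71 kb (57.1%) and 26.76 kb (59.5%). Fasted cover exceeded fed cover, with 26237.0 ± 745.3 bp against 10898.5 ± 7101.5 bp (mean ± SD, n = 2 each), a ratio of 2.41 (exact permutation p = 0.33). This order held at 78.3% of the 15150 windows of 45 kb with a peak, and the median ratio over those with a fed peak was 3.05. With the top-scoring 21.9 Mb of each list the states overlapped, since fasted 2 then had 4970 bp, less than the 5373 and 5877 bp of the fed libraries, while fasted 5 had 26764 bp (exact permutation p = 1.0, n = 2 each). In every library the window stood among the most covered of its length, above or level with 99.1% and 98.2% of all 58565 such windows in the fed lists and 99.0% and 99.2% in the fasted lists. These ranks include windows without any peak, which made up 84.1% and 88.7% in the fed lists and 78.1% and 74.9% in the fasted lists. Windows covered at least as much numbered 550 and 1043 (fed) and 568 and 458 (fasted).

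Relative to the whole list the order at Hes1 was the other way round. It held 326.5 and 268.2 bp per Mb of peak cover in the fed lists and 259.3 and 245.3 bp in the fasted lists. The fed values were thus the higher without overlap (297.4 ± 41.2 against 252.3 ± 9.9, SD, n = 2 each, exact permutation p = 0.33), as in 14.1% of the windows of 45 kb with a peak. When each list was cut to its 15504 highest-scoring peaks the difference turned from -45.1 to 31.9, and the states overlapped. They also overlapped when the peaks that cross the window's edge were counted whole, since fasted 2 then had 269.7 bp per Mb and fed 4 268.2 bp. Hes1 also had fewer fasted peaks (4 and 2) than fed peaks (8 and 5; exact permutation p = 0.33, n = 2 each), an order found in 2.38% of the windows of 45 kb with a peak. This order and the fed-higher order per Mb both need a peak in each fed library. At most 9983 of the 15150 windows with a peak could show either order, since only these had a peak in either fed library. Fed 4 had no peak in 88.7% of all 58565 windows of 45 kb. Both shares are limited by this need, to an extent that was not tested. At a score of 200 or more the difference in peak number turned, to 2.5 more fasted peaks, because no fed peak of the window scored that high. Over the whole lists, that minimum kept 3639 of 27640 and 640 of 15504 fed peaks. It kept 14195 of 37974 and 20009 of 35917 fasted peaks. The scores have no stated common scale between lists, so this turn cannot show a difference between the states.

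The wide fasted peaks took in nearly everything the fed libraries had at Hes1. All of the cover of fed 1 (15920 bp) and of fed 4 (5877 bp) lay under fasted 5, and 99.1% and 100.0% of it under fasted 2. As at Notch1, such shares were not taken over the genome. Fasted 5 had a pair of adjoining peaks, here called blocks, chr16:30043455-30055273 (11819 bp) at percentile 95.5 and chr16:30055374-30071863 (16490 bp) at the tied score of 3100, percentile 99.6. Fasted 2 covered the second block with 1 peak of 15815 bp (chr16:30055415-30071229), wider than 99.4% of its list or equal in width, yet only at score percentile 66.7. The narrower peak beside it (chr16:30050110-30055079, 4970 bp) was the highest of fasted 2, at percentile 95.8.

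Within the second block the highest peaks of the fed libraries lay in different places, though their peaks overlapped in part. The highest fed 1 peak (chr16:30065451-30068240, 2790 bp, percentile 82.9) shared 0 bp with fed 4. The highest fed 4 peak (chr16:30069529-30071035, 1507 bp, percentile 85.5) shared 1025 bp with a weaker fed 1 peak. Fed 4 had no peak in the first block, where fed 1 had peaks up to percentile 77.4. The fed libraries had 3507 bp in common, all of them in the second block. That was 22.0% of the cover of fed 1 in the whole window and 59.7% of that of fed 4. The fasted pair had 25710 bp in common, 100.0% and 96.1% of theirs. On the right, 18137 bp of the window had no peak in any library.

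**Figure D2:**
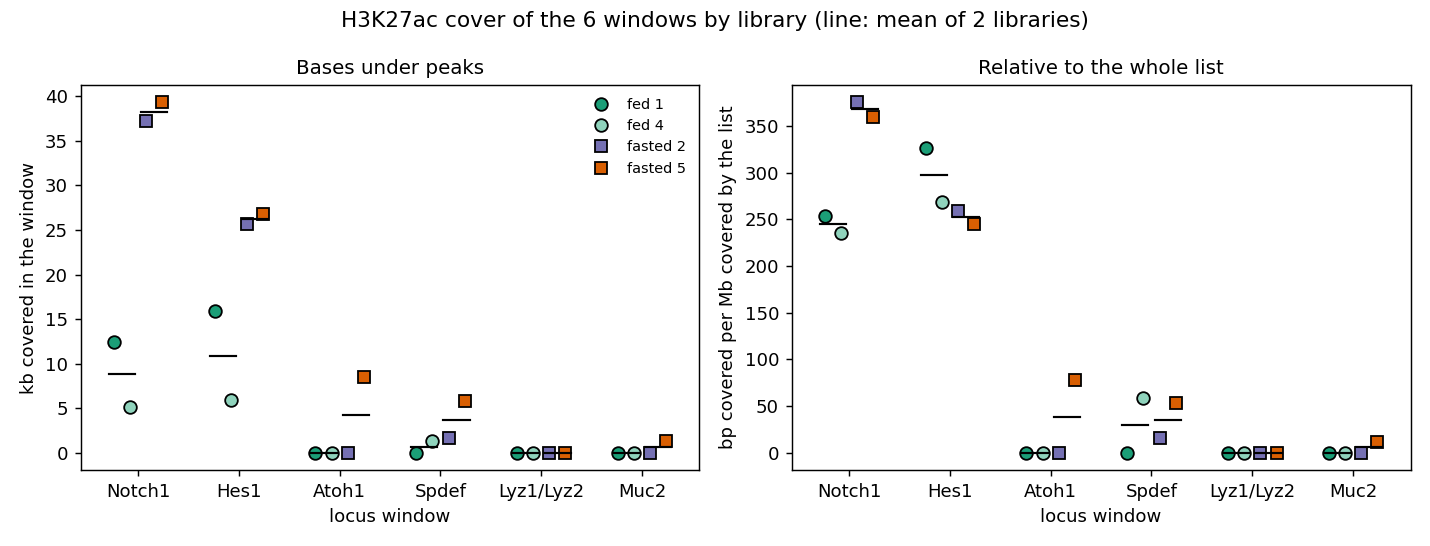
Bases under peaks in each window, in kb on the left and per Mb covered by the same library's list on the right, with 1 point per library and a line at the mean of each feeding state. In kb the fasted points lie above the fed points at Notch1, Hes1 and Spdef; per Mb of the list they lie above at Notch1, below at Hes1 and overlap at Spdef.

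Atoh1, the factor that starts the secretory lineage, had no peak in fed 1, fed 4 or fasted 2. Fasted 5 had 7 peaks there, which covered 8.46 kb (18.8% of the window) and were 794 to 1958 bp wide. They stood low in their list, at percentiles 11.9 to 25.6. In the other libraries the nearest peak was 3441408 to 3528164 bp to the left of the window and 286933 to 841019 bp to the right, and the stretch without a peak spanned 3860245 and 4333503 bp in the fed libraries, and 3773340 bp in fasted 2. In fasted 5 itself the next peaks outside the window were 3185172 bp to the left and 286938 bp to the right. The neighbouring peaks, chr6:64677274-64678764 and chr6:64679159-64681116, were centred -4.48 and -2.36 kb from the window's centre, and the highest-scoring one was chr6:64691289-64692335. The groups overlapped, since fasted 2 had 0 bp as the fed libraries did (4227.5 ± 5978.6 bp against 0 bp, SD, n = 2 each, exact permutation p = 1.0).

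Few windows held so many peaks of fasted 5 and none of the others. Along the genome 1956 windows of 45 kb had a peak in fasted 5 alone, 12.9% of those with any peak. They held a median of 1.0 peak, and 2 of them held 7 or more, of which 1 was the grid window with these Atoh1 peaks. Over all windows examined, 12 of 19 merged regions had a peak in fasted 5 alone, against 19.1% of the 43091 merged regions of the genome. Of these 12 regions, 7 were the Atoh1 peaks, 3 lay at Spdef and 1 each at Notch1 and Muc2. The count thus rests mainly on 1 locus in 1 library. The percentiles of the 12 ran from 3.0 to 32.8 with a median of 20.8, near the median of 21.5 over all 8236 regions of fasted 5 alone. The part of this single library in the Atoh1 result was not tested beyond leaving it out, which leaves no peak.

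Spdef, the ETS factor of goblet and Paneth cells, had a small region with peaks in 3 libraries. Of its 60 kb window, fed peaks covered 0 and 1.29 kb and fasted peaks 1.60 and 5.84 kb. The states did not overlap, at 647.5 ± 915.7 bp fed and 3721.5 ± 2997.4 bp fasted (SD, n = 2 each, exact permutation p = 0.33), as in 80.1% of the 12871 windows of that length with a peak. The difference of 3074.0 bp came to 954.5 bp without fasted 5. With scores from 200 upwards, where fasted 2 alone kept a peak, the difference was 801.0 bp. It was 153.5 bp with 15504 peaks from each list, where fed 4 had 1295 bp and fasted 5 had 0, and -647.5 bp with 21.9 Mb from each list, where fed 4 alone kept a peak. The states overlapped in each of these (exact permutation p = 1.0, n = 2 each). The shared region (chr17:27853437-27856232, 2796 bp) held 1 peak each of fed 4, fasted 2 and fasted 5, at percentiles 40.0, 63.3 and 43.7. The fasted peaks there overlapped by 1591 bp, and the fed 4 peak overlapped them by 658 and 647 bp. The other 3 Spdef peaks were in fasted 5 alone, at percentiles 14.8 to 29.3. Per Mb of peak cover the states overlapped, with 0 and 59.1 bp fed and 16.2 and 53.5 bp fasted (exact permutation p = 1.0, n = 2 each).

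Of the products of mature secretory cells, the mucin gene had a single peak and the lysozyme genes none. The Muc2 window, at 110 kb the longest, had 1 peak of 1301 bp in fasted 5 (chr7:148857135-148858435, percentile 32.8), centred at -47.22 kb from the middle; a peak in fasted 5 alone was found in 11.4% of windows of that length with any peak. To its right, the last 101565 bp of the window had no peak in any library. Beyond the Muc2 window the nearest peak on the left was 48294 bp away and on the right 103836 bp away. The Lyz1 and Lyz2 window had 0 of its 60 kb under a peak in any library, as did 70.7% of the 43927 windows of that length. Peaks flanked it at 27617 bp on the left and 61779 bp on the right, both in fasted 2. Since depth is unknown, a window without a peak shows that no peak was called there, not that the mark is absent. These 2 windows carry the defining product genes of goblet and Paneth cells, and they give no positive check of either cell type in the crypts. Windows of further product genes were not examined.

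Across the 6 windows, fasted cover exceeded fed cover without overlap at 3 of the 5 windows with a peak, against 78.3% to 83.3% of windows of the same lengths. With the top-scoring 21.9 Mb of each list the states overlapped at all 3. Among the 19 merged regions, 3 had peaks in all 4 libraries, against 16.1% of all merged regions, 1 was fasted-only against 19.3%, and 0 were fed-only against 0.297%. At 6 of the 19, against 49.4%, each fasted library had more bases under peaks than either fed one. The summed cover of the windows came to 580.6 and 563.0 bp per Mb of the fed lists and 650.8 and 748.5 bp per Mb of the fasted lists. Notch1 and Hes1 made up 100.0% and 89.5% of it (fed) and 97.5% and 80.9% (fasted).

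**Figure D3:**
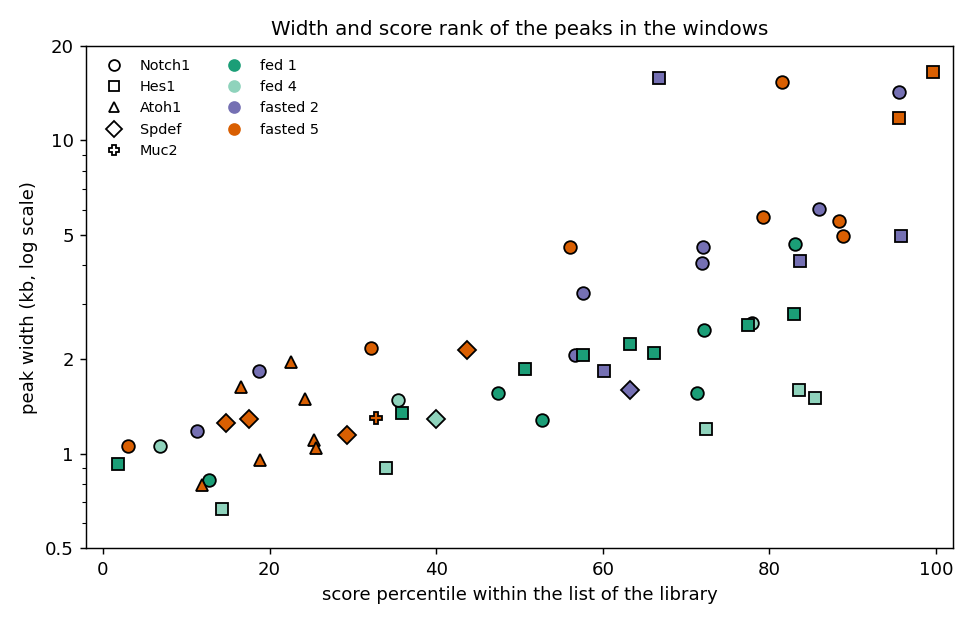
Width in kb, on a log scale, of each of the 57 peaks against its score percentile within its own list, with symbols for the locus and colours for the library. Peaks over 10 kb are all of fasted libraries at Notch1 or Hes1. Under percentile 50 lie 13 of the 14 Atoh1, Spdef and Muc2 peaks and 12 of the 43 Notch1 and Hes1 peaks. Of those 14 peaks, 12 are of fasted 5.

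The windows end where the selection rule puts them, and peaks just outside were not counted. At Hes1 a fed 1 peak ended 984 bp left of the window (percentile 60.3) while the first one inside began 1809 bp from the edge (percentile 77.4), and a peak of each fasted library crossed that edge. At Notch1 the nearest peak outside was 1816 bp to the left, in fasted 5 at percentile 6.6, and the first inside 3264 bp from the edge, also in fasted 5, at percentile 88.4. At Atoh1 the last fasted 5 peak crossed the right edge. By gene order on GRCm38.p6, the protein-coding neighbours are Sec16a and Egfl7 for Notch1, Opa1 and Cpn2 for Hes1, Pacsin1 and Ilrun for Spdef, and Muc6 and Muc5ac for Muc2; a peak in a window may belong to a gene other than the one it is named for.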

How the data were processed

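H3K27ac ChIP-seq libraries of 2 fed and 2 fasted crypt pools were compared; the 4 input libraries were not analysed here. Each deposited list held the peaks of a single library, with position and a score per peak that the authors' peak caller gave. The submitters' processing notes name build mm9 and the tools deepTools 1.5.11, SAMtools 1.9, Bowtie 1.1.2 and FastQC. Peak names point to MACS, with version and options not given in the sources used here. No file states the scale of the score. Other than the score, the deposited values are start and end positions; printed coordinates count from 1. Read depth is unknown, so no interval that needs it is given.

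Peaks overlapping a window by 1 bp or more were taken, cut at its edges, and the covered bases counted with Python 3.11.15 and pandas 2.3.3. Merged regions join overlapping peaks of the 4 lists. Comparison windows are consecutive, of the same length, from the first base to the last peak of each chromosome. Feeding states were compared by two-sided exact permutation tests (scipy 1.17.1), without adjustment since p cannot go below 0.33; percentiles were not compared between lists of unlike length. The code was tested on simulated lists with known cover. The members, lists and tests were chosen with earlier results of these data known. All windows are described in full; regions are named by widest peak, highest-scoring peak per library, fasted-only or fed-only presence, and nearness to an edge. The region comparisons with fasted 5 alone were added after seeing the peaks. Lists of further Notch and lineage genes were not run, because positions were not converted between builds. Alternatives were score minimums of 100 and 200, lists of 15504 peaks or 21.9 Mb each, whole peaks, other overlap or merging rules, percentiles from the lower edge of ties, file numbers 10 and 11, and leaving out each library.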

Additional observations from a re-analysis of the deposited data

How the results depend on the processing

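No paired analysis was possible because the labels give the fed and fasted libraries no shared replicate number to use as a block. Differences were taken, with no test, within the number in the file names, which no label says marks a pair (10 for fed 1 and fasted 2, 11 for fed 4 and fasted 5); fasted minus fed was 24840.0 and 34145.0 bp at Notch1, 9790.0 and 20887.0 bp at Hes1 and 1602.0 and 4546.0 bp at Spdef. Of 229 recomputed values, 164 kept their direction or size, 11 turned, 32 fell to a difference of 0 and 22 moved. The 164 include every value of the Lyz1 and Lyz2 window, which has no peak and stays at 0 under any setting. They also include differences that shrank without changing sign, such as that of 153.5 bp at Spdef (from 3074.0). The mean difference in bases at Notch1 and Hes1 kept its sign under every alternative run, but at equal covered length it came to 2192.5 bp at Notch1 (from 29492.5) and 10242.0 bp at Hes1 (from 15338.5), with overlapping states and an exact permutation p of 1.0 for both. There the Notch1 difference per Mb was 100.1 (from 122.9), also with overlap. The fasted-minus-fed differences at Atoh1 and Muc2, in bases, per Mb of the list and in peaks, fell to 0.0 at a score of 200 or more, with 15504 top-scoring peaks or 21.9 Mb from each library, without fasted 5, and, in bases, within file number 10; at Atoh1 also at a score of 100 or more. With a library left out they ran from 0.0 to 8455.0 bp, 77.5 bp per Mb and 7.0 peaks at Atoh1, and to 1301.0 bp, 11.9 bp per Mb and 1.0 peak at Muc2, the upper values without fasted 2. At Spdef the difference in bases was 801.0 at a score of 200, 153.5 with lists of equal number and -647.5 at equal covered length, with overlap in each. Per Mb it was -17.9 with lists of equal number, -29.5 with lists of equal length and -24.3 to 34.8 with a library left out. At Hes1 the difference per Mb was 338.8 at a score of 200 (no fed peak left), 31.9 with lists of equal number and 467.7 at equal covered length. The difference in peak number at Notch1 was 0.0 with lists of equal number and -1.5 with lists of equal length; at Hes1 it was 0.0 at a score of 100 and 2.5 at 200; at Spdef it was 0.0 and -0.5 at equal number and length. Merged regions with peaks in all 4 libraries fell from 3 to 0 at equal covered length. Fasted-only regions numbered 2 with lists of equal number and at a score of 100, 0 at equal covered length and 2 to 16 with a library left out, the 16 without fasted 2. Fed-only regions were 0 to 1 with a library left out, the 1 without fed 4. Other regions numbered 9 with gaps of 1000 bp merged, 2 with lists of equal number, 6 with lists of equal length, 4 at a score of 100 and 3 to 13 with a library left out. With 15504 peaks from each list the highest percentile at Notch1 was 69.8 (fed 1), 89.0 (fasted 2) and 74.0 (fasted 5), at Hes1 69.5 in fed 1 and 89.8 in fasted 2, and at Spdef 10.2 in fasted 2; with ties at the lower edge that of Hes1 in fasted 5 was 96.0. Shorter lists remove peaks by construction, and both score minimums kept a smaller share of each fed list than of each fasted list. Other causes were not tested.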

Other observations

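With peaks of 1 list joined wherever less than 10000 bp separated them, Hes1 lay at the right end of a longer domain in fasted 2 than elsewhere. That domain (chr16:29968150-30071229) had 17 peaks and 68.4 kb covered and ranked 75 of 12881 domains of its list by cover. The fasted 5 domain (chr16:30033275-30071863) had 4 peaks, 35.5 kb covered and rank 385 of 15418. The fed 1 domain (chr16:30035240-30070553) covered 19.7 kb, rank 421 of 9695, and the fed 4 domain (chr16:30058002-30071035) covered 5.9 kb, rank 903 of 7149. Their right ends lay close together, whereas their left ends differed. At Notch1 the domain that holds the widest region covered 9.5 and 3.7 kb in the fed lists (ranks 1320 and 1611) and 25.4 and 28.1 kb in the fasted lists (ranks 826 and 645).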
